A study of Mus musculus with 10 samples.

Results

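Trem2-knockout microglia were compared with wild-type microglia, using the 3 knockout and 4 wild-type libraries out of the 10 RNA-seq libraries of the series. The comparison covered 13299 genes of 24033 gene names, those with at least 0.5 RPKM (reads scaled to gene length and to the library total) in at least 3 of the 7 libraries. Trem2 fell to 12.8% of its wild-type level and was the 1 gene of the 13299 that passed the test. Around it on chromosome 17, several neighbours stood apart from wild type in each knockout library. Elsewhere, the largest positive differences among the genes with the smallest p were mostly in genes of neutrophil granules, and these were much larger in knockout library 6 than in the other 2 knockout libraries.

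TREM2 is a receptor on the surface of microglia and some other myeloid cells that binds lipids, lipoproteins and debris. It has almost no signalling tail of its own and pairs with the adaptors TYROBP (DAP12) and HCST (DAP10), which pass the signal to the kinase SYK and to phosphoinositide 3-kinase. In mouse models of neurodegeneration, microglia need the receptor to take on the full disease-associated state, with its genes of lipid handling and phagocytosis, and to move towards and surround lesions.

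The mice were of the C57BL/6 background and 3 to 5 months old. Wild-type libraries (TREM2+/+) carried the numbers 1 and 10 from females and 4 and 7 from males, and knockout libraries (TREM2-/-) the number 6 from a female and 9 and 12 from males. The other 3 libraries of the series were from heterozygous mice. The labels name no treatment and no other allele in any of these groups. Microglia were taken from adult mice with magnetic beads that bind CD11b, an integrin subunit that monocytes, neutrophils and border macrophages carry as well. How the allele disrupts Trem2 is not stated in the labels, nor is a cell type to which the deletion is limited. It is also not stated if the RNA of a library was that of 1 mouse or of several, and the p-values therefore reflect only how these libraries vary, which may be partly technical.

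Depth ranged from 18.5 M to 45.1 M reads assigned to genes (M, megareads). Libraries 9, 10 and 12 held 38.1 M to 45.1 M and libraries 1, 4, 6 and 7 held 18.5 M to 22.5 M, so both male knockouts were deep, both male wild types shallow, and only wild-type library 10 was a deep wild type. Depth, or whatever else set these libraries apart, and genotype cannot be told apart within the males. With 1 female knockout, the effect in females and library 6 cannot be told apart either. Correlations of log2 values across genes ran from 0.962 to 0.985 within wild type, 0.959 to 0.978 within knockout and 0.955 to 0.982 between them, as a description across genes that are not independent. Library 6 had 81 genes at over 2 times every other library, the most of any, and wild-type library 4 had 309 genes under 0.5 times every other library. The microglial markers were high in all 7 libraries: P2ry12 ranged from 1666 to 2274 RPKM, Cx3cr1 from 776.6 to 927.2, Tmem119 from 417.7 to 634.5 and Sall1 from 154.4 to 205 RPKM. The recorded sexes matched in 7 of 7 libraries.

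Trem2 (ENSMUSG00000023992.14; GRCm38, chromosome 17, 48346401 to 48354147, plus strand) measured 170.1, 184.5, 237.2 and 174.1 RPKM in wild-type libraries 1, 4, 7 and 10. It measured 28.3, 21.4 and 23.9 RPKM in knockout libraries 6, 9 and 12, from 627, 934 and 1103 reads. The groups were far apart, and every knockout library still held reads assigned to the gene. Means were 191.5 ± 31.1 RPKM in wild type (SD, n = 4) and 24.55 ± 3.52 in knockout (SD, n = 3). Trem2 fell by 2.94 on the log2(RPKM + 0.5) scale (SE 0.15 and limma adjusted p = 0.000144). An exact permutation test over the libraries gave a two-sided p = 0.0571, the smallest that 4 against 3 libraries can give when the smaller tail is counted for both sides. The fall was 3.18 without library 6 (SE 0.13 and limma adjusted p = 3.47e-05). It was 2.92 within the deeper libraries and 2.76 within the shallower ones, both as differences of means without a test. In bulk RNA such as this, fewer cells of a type and less RNA per cell cannot be told apart.

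Apart from Trem2, no gene passed at an adjusted p under 0.05: limma called 0 genes higher (0% of 13299) and 1 lower (0.00752%). limma-voom on recovered whole reads called 2 higher (Ltf and Mmp9) and 2 lower (Trem2 and Treml2). At an unadjusted p under 0.05 there were 438 genes higher (3.29%) and 245 lower (1.84%), 683 in all (5.14%). All values of the 3 knockout libraries lay above all 4 wild-type values in 394 genes (2.96%) and below them in 205 (1.54%). The median log2 fold change of all genes was 0.03, and 57.5% of genes had a positive one. Higher genes thus made up 64.1% of those under an unadjusted p of 0.05, but 50.9% (352 higher, 2.65% of genes, and 340 lower, 2.56%) after each library was rescaled by its median ratio to the others. Library 6 was the most extreme knockout library in 263 of the 438 higher genes (60.0%) and in 148 of the 245 lower genes (60.4%). Without it, all 438 and all 245 genes kept their sign, and 232 and 108 of them remained under an unadjusted p of 0.05, although these fits share 6 libraries.

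The other genes of the TREM cluster, and genes close to it, were listed because the receptor family and its neighbours flank the targeted gene. TREM genes encode related receptors with an immunoglobulin domain. From left to right on chromosome 17 of GRCm38 they run Trem1, Trem3, Treml4, Treml2, B430306N03Rik, Trem2, Treml1, Nfya, Oard1, Apobec2, Tspo2 and Unc5cl, with Tfeb, Mdfi and Foxp4 farther off. Of 14 such genes in the files, Trem3 and Tspo2 did not reach the filter and 12 were tested. None passed the adjusted test, while 7 were higher and 2 lower at an unadjusted p under 0.05, beside 3.29% and 1.84% of all genes. In 6 genes all knockout libraries lay above wild type and in 2 they lay below, against 2.96% and 1.54% of all genes. Without library 6, 4 were higher and 2 lower at an unadjusted p under 0.05, beside 8.17% and 3.59% of all genes, and 6 and 2 did not overlap, beside 7.13% and 4.63%. Treml4 and Unc5cl, counted among the 7 higher and among the 6 above wild type, reached 0.5 RPKM in fewer than 3 wild-type libraries. They passed the filter only through knockout libraries, so those counts were partly set by the filter. Whether the authors' counting used strand is not stated in these sources, so reads of genes that overlap on opposite strands may be mixed.

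The starts of Trem2 and of Treml4 are shown because these members of 1 receptor cluster lie on the same strand. They also differed in opposite directions in the knockout, although Treml4 passed the filter only through knockout libraries. Each sequence is the 250 bases before the RefSeq gene start (GRCm38.p6, plus strand, chr17:48346151-48346400 for Trem2 and chr17:48264045-48264294 for Treml4). Capitals mark GAGGAA or its reverse complement TTCCTC, a core bound by the myeloid factor PU.1, and CCAAT or its reverse complement ATTGG, the box bound by NF-Y, whose A subunit is encoded by the neighbour Nfya.
Trem2: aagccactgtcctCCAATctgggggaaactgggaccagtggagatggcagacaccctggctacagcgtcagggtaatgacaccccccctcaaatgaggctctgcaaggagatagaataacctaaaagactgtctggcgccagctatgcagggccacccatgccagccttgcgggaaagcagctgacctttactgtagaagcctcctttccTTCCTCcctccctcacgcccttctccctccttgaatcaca
Treml4: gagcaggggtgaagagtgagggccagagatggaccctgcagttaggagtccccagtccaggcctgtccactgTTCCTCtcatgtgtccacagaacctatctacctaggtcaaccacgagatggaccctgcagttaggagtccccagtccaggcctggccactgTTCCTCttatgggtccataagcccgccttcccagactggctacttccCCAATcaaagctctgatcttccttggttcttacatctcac
The Trem2 window held 1 match of the GAGGAA core and 1 of the CCAAT box, and the Treml4 window 2 and 1, with no overlap between them. Of 32851 promoter windows of the same length, 23.2% held the GAGGAA core and 33.8% the CCAAT box on either strand, so such matches are common and describe these letters only.

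Among the family's receptors, Treml2, which is found on lymphoid and myeloid cells, measured 6.46, 7.52, 9.06 and 7.63 RPKM in wild-type libraries 1, 4, 7 and 10. In knockout libraries 6, 9 and 12 it measured 3.90, 1.83 and 1.64 RPKM. All 3 knockout values were below wild type, with library 6 the nearest to it. The log2 fold change was -1.49 (SE 0.25 and limma adjusted p = 0.488), and Treml2 did not pass. Without library 6 it was -1.97 (SE 0.20 and limma adjusted p = 0.016), which passed, and without both library 6 and the sex term it was -1.86 (limma adjusted p = 0.0161). limma-voom on the recovered whole reads of all 7 libraries gave -1.77 (limma adjusted p = 0.0466). Treml2 did not pass in the male libraries alone, at -1.97 (limma adjusted p = 0.0535). With a term for depth it was at -1.32 and did not pass either (limma adjusted p = 0.391).

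Treml4, a receptor of dendritic cells and macrophages that aids responses of an endosomal nucleic-acid sensor, measured 0.305, 0.615, 0.652 and 0.394 RPKM in wild type and 2.52, 1.23 and 1.81 RPKM in knockout libraries 6, 9 and 12. Every knockout library was above every wild-type library, from 82 to 127 reads in the knockout and 12 to 31 in wild type. Treml4 passed the filter only through knockout libraries, so its place above wild type was partly set by the filter. The log2 fold change was 1.22 (SE 0.27 and limma adjusted p = 0.735), and 0.82 without library 6. Treml1, a receptor stored in platelet granules, measured 2.66, 3.36, 4.07 and 1.74 RPKM in wild type and 6.46, 4.34 and 4.44 in knockout, again without overlap (log2 0.69; 0.22 without library 6). Trem1, which amplifies inflammatory signals in neutrophils and monocytes, was high in 1 knockout library only: library 6 held 5.73 RPKM, libraries 9 and 12 held 1.03 and 0.896, and wild type 0.602 to 1.48 (log2 0.95; 0.20 without library 6).

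Nfya, the most abundant of these neighbours and a subunit of the transcription factor NF-Y, measured 94.3, 87.1, 98.6 and 89.1 RPKM in wild type. It measured 138.8, 120.8 and 116.7 RPKM in knockout libraries 6, 9 and 12. The knockout libraries were all above wild type, and the group means were 92.3 ± 5.21 (SD, n = 4) and 125.4 ± 11.7 (SD, n = 3). The log2 fold change was 0.45 (SE 0.10 and limma adjusted p = 0.686) and 0.36 without library 6. B430306N03Rik, between Treml2 and Trem2, measured 3.69 to 6.02 RPKM in wild type and 8.35, 6.61 and 7.73 RPKM in knockout libraries 6, 9 and 12. Unc5cl, a death-domain protein, measured 0.548, 0.103, 0.248 and 0.250 RPKM in wild type and 1.72, 0.740 and 1.38 RPKM in knockout, with 6 to 35 reads against 80 to 157. Both were higher in every knockout library, with log2 fold changes of 0.70 and 1.24 (limma adjusted p = 0.686 for each), and 0.82 and 1.18 without library 6. Unc5cl reached the filter's 0.5 RPKM in wild-type library 1 alone, so it was tested only through its knockout libraries. Its place above wild type was thus partly set by the filter.

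Mdfi, which binds and restrains myogenic transcription factors, measured 1.28, 1.43, 1.78 and 1.41 RPKM in wild type and 0.200, 0.265 and 0.611 RPKM in knockout libraries 6, 9 and 12. The groups did not overlap, on 60 to 132 reads in wild type and 8 to 51 in the knockout (log2 -1.27, SE 0.23 and limma adjusted p = 0.488; -1.19 without library 6). Tfeb, a master regulator of lysosomal genes that lies beside Mdfi, was at 5.23 to 6.08 RPKM in wild type and 6.13 to 8.63 in knockout (log2 0.30, limma adjusted p = 0.973; 0.38 without library 6). Oard1 overlapped between the groups at 11.9 to 16.9 RPKM in wild type and 13.4 to 18.0 in knockout (log2 0.10; 0.03 without library 6). Foxp4 measured 0.667 to 1.81 RPKM in wild type and 0.759, 1.17 and 1.68 in knockout libraries 6, 9 and 12, and its log2 fold change of -0.01 became 0.45 without library 6 and 0.18 with the sex term dropped too.

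**Figure D1:**
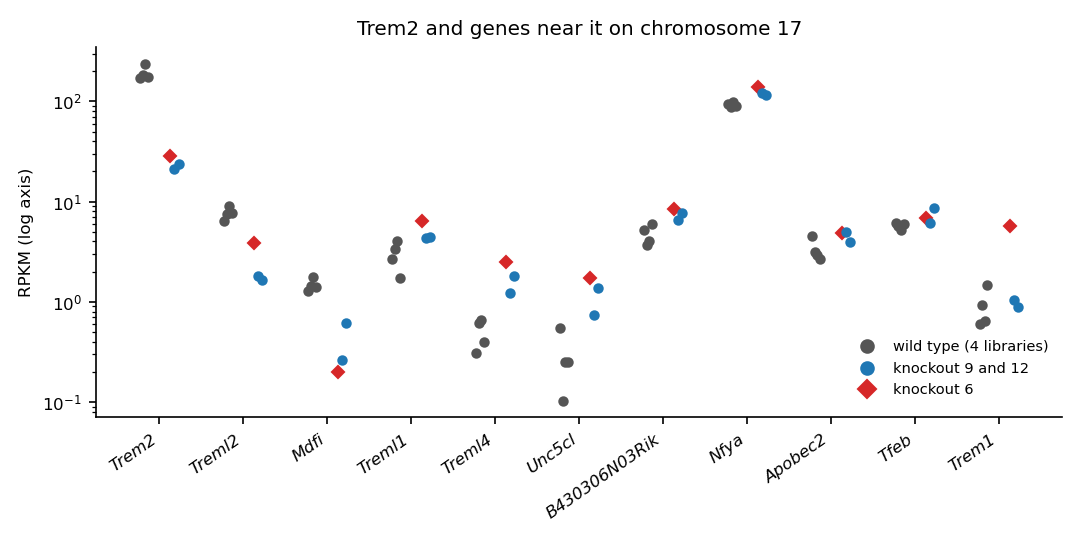
RPKM on a log axis of Trem2 and 10 genes near it on chromosome 17, with 1 point for each library (grey wild type, blue knockout 9 and 12, red diamond knockout 6). Trem2 drops from at least 170.1 to at most 28.3 RPKM, Treml2 and Mdfi lie below wild type in all 3 knockout libraries, and Trem1 is high in knockout library 6 alone.

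Across the genome, the 12 genes of at least 2 RPKM with the smallest p on the higher side were Mmp9, Slc25a20, S100a6, Ltf, Dgat1, Ngp, Cybb, Nfya, Trappc2l, Retnlg, Dtd1 and Commd2. None passed. Mmp9, a gelatinase stored in neutrophil granules, measured 1.06, 0.584, 0.836 and 1.39 RPKM in wild type and 7.02, 2.43 and 2.83 RPKM in knockout libraries 6, 9 and 12 (log2 1.68, SE 0.23 and limma adjusted p = 0.314). Ltf, the iron-binding lactoferrin, measured 2.15, 0.996, 2.47 and 3.07 RPKM in wild type and 33.4, 5.70 and 4.26 RPKM in knockout. Ngp, a neutrophil granule protein, measured 12.9, 18.4, 21.0 and 25.4 RPKM in wild type and 255.8, 41.8 and 56.3 in knockout. These genes were above wild type in all 3 knockout libraries, and library 6 was far above the other knockout libraries in each.

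Without library 6 the log2 fold changes were 1.38 for Mmp9, 1.37 for Ltf and 1.28 for Ngp, against 1.68, 2.20 and 2.28 with it. Retnlg, a secreted factor of neutrophils, likewise went from 2.03 to 1.08. limma-voom on recovered reads called Mmp9 and Ltf (limma adjusted p = 0.00995 for both), and the fit on RPKM did not (limma adjusted p = 0.314 and 0.651). The summed level of the neutrophil marker list, to which these 4 genes belong, was 2491 RPKM in library 6, 519.7 and 558.3 in libraries 9 and 12, and 248.3 to 369.8 in wild type. The part of that level in these results was not tested.

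Dgat1, the enzyme that makes triglyceride for lipid droplets, measured 10.8, 8.06, 7.35 and 10.0 RPKM in wild type and 14.6, 12.3 and 14.2 RPKM in knockout libraries 6, 9 and 12. Its knockout libraries were all above wild type and near each other (log2 0.64, SE 0.13 and limma adjusted p = 0.686; 0.74 without library 6). Slc25a20, the mitochondrial carrier of acylcarnitine, measured 10.9, 5.72, 5.53 and 9.64 RPKM in wild type and 17.5, 9.66 and 9.99 in knockout. Its wild-type females overlapped the male knockouts, and the log2 fold change of 0.75 became 0.35 when library 6 and the sex term were left out together. Cybb, the catalytic subunit of the phagocyte oxidase, measured 14.2 to 21.1 RPKM in wild type and 34.6, 20.0 and 22.3 in knockout. Libraries 9 and 12 thus stood at its upper wild-type edge. Its log2 fold change was 0.60, 0.47 without library 6, and 0.29 with the sex term dropped too. S100a6, a calcium-binding protein, measured 0.136 to 3.21 RPKM in wild type and 10.7, 3.94 and 6.61 in knockout. Its lowest value, in wild-type male 4, rested on 2 reads. The log2 fold change of S100a6 was 2.17, 2.29 without library 6, and 1.64 with the sex term dropped too. It was 0.60 within the deeper libraries and 2.98 within the shallower ones. Dtd1 and Commd2 were above wild type in all 3 knockout libraries, at log2 fold changes of 0.69 and 0.72, and 0.61 and 0.55 without library 6.

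On the lower side, after Trem2, the rule named Hebp1, Treml2, Cetn3, AF357359, Chst2, Timp2, F9, St8sia6, Pdgfa, Stag1 and Dusp2. Hebp1, a heme-binding protein, measured 8.41, 13.2, 12.8 and 8.74 RPKM in wild type and 4.68, 7.24 and 6.99 RPKM in knockout libraries 6, 9 and 12. All knockout values were below wild type, with the wild-type males highest (log2 -0.82, SE 0.12 and limma adjusted p = 0.314; -0.83 without library 6, and -0.54 when the sex term was dropped as well). Chst2, a sulfotransferase of cell-surface glycans, measured 4.34, 4.28, 5.59 and 4.86 RPKM in wild type and 2.65, 2.71 and 1.88 in knockout. St8sia6, a sialyltransferase, measured 16.0, 11.8, 13.9 and 9.24 RPKM in wild type and 7.23, 7.33 and 5.01 in knockout. Both were at 50.6% and 51.1% of wild type without overlap, with log2 fold changes of -0.86 and -0.90, and -0.96 and -1.02 without library 6.

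Pdgfa, a growth factor for oligodendrocyte precursors and mesenchymal cells, measured 51.8, 47.8, 49.2 and 51.0 RPKM in wild type and 37.3, 35.6 and 41.0 in knockout libraries 6, 9 and 12. The libraries of each group lay close together, at 49.95 ± 1.79 (SD, n = 4) against 37.98 ± 2.78 (SD, n = 3), yet the test did not call the gene (log2 -0.39, SE 0.09 and limma adjusted p = 0.832; -0.34 without library 6). Dusp2, a phosphatase that turns off MAP kinases, was at 13.3 RPKM or more in wild type and 9.45 to 10.8 in knockout (log2 -0.52; -0.63 without library 6). Cetn3, a centriole protein, was at 46.0 to 68.1 RPKM in wild type and 32.7 to 42.6 in knockout (log2 -0.53; -0.49 without library 6). AF357359, which has no match in the annotation used, rested on 1 to 6 reads in wild type and 0 to 2 in the knockout.

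**Figure D2:**
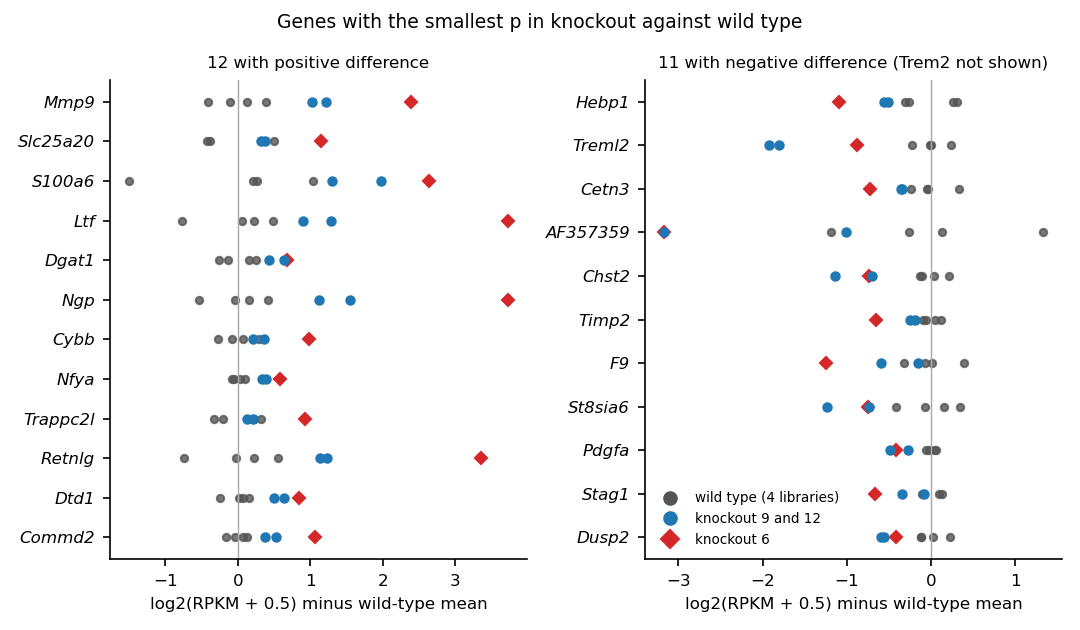
Each library's log2(RPKM + 0.5) minus the wild-type mean for the 12 genes with positive and 11 with negative differences that had the smallest p; colours as in the plot of the cluster. Library 6 (red diamonds) is the farthest from wild type for Ltf, Ngp and Retnlg, while Treml2 is farther from wild type in libraries 9 and 12.

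The receptor's adaptors and signalling enzymes were 25 genes, all tested, of which 16 had positive values. At an unadjusted p under 0.05, 1 was higher and 0 lower, beside 3.29% and 1.84% of all genes, and 8 and 0 without library 6, beside 8.17% and 3.59%; with the sex term dropped too, 0 were higher and 1 lower, beside 2.5% and 1.38%. Their median log2 fold change was 0.07, beside 0.03 for all genes, and 0.22 without library 6 (0.14 with the sex term dropped too). Tyrobp, the main adaptor, measured 648.2, 536.4, 618.1 and 686.2 RPKM in wild type and 586.9, 681.0 and 773.6 in knockout libraries 6, 9 and 12, so the groups overlapped (log2 0.13, SE 0.14 and limma adjusted p = 1.00; 0.33 without library 6). Hcst, the second adaptor, was far less abundant, at 4.62, 2.54, 1.72 and 4.46 RPKM in wild type and 4.80, 4.69 and 6.70 in knockout. Its knockout libraries were just above the female wild types (log2 0.77, SE 0.27 and limma adjusted p = 0.944). Hcst was at 1.24 without library 6, and at 0.76 with the sex term dropped too.

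TREM2 is shed by ADAM10 and ADAM17 and its stub cut by gamma-secretase. Of the 9 genes of these enzymes, 2 had positive values, the median was -0.10 (-0.14 without library 6), and 1 was higher and 1 lower at an unadjusted p under 0.05, beside 3.29% and 1.84% of all genes. Psen2, a catalytic subunit of gamma-secretase, measured 3.09, 4.75, 4.13 and 3.405 RPKM in wild type and 2.36, 2.33 and 2.005 RPKM in knockout libraries 6, 9 and 12, without overlap (log2 -0.69, SE 0.18 and limma adjusted p = 0.834; -0.89 without library 6). Psenen, another subunit of the same enzyme, differed the other way at 3.602 to 8.87 RPKM in wild type and 7.73 to 13.3 in knockout, with overlap (log2 0.70; 1.18 without library 6). Among 11 genes of ligands and partners, the median was 0.05 (0.16 without library 6). Apoe, a lipoprotein ligand of TREM2, measured 162.4, 70.1, 113.2 and 172.4 RPKM in wild type and 86.5, 126.2 and 169.6 in knockout. Its spread within each group exceeded the difference of the means (log2 0.05, SE 0.32), and its direction changed with the libraries and terms used, from 0.71 without library 6 to -0.95 between the females.

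Genes of the disease-associated state that depend on Trem2 in disease models were 24 tested genes, of which 18 had negative values and 5 were lower at an unadjusted p under 0.05, beside 1.84% of all genes. None passed the adjusted test, and 0 were higher at an unadjusted p under 0.05, beside 3.29% of all genes. Their median log2 fold change was -0.17, against 0.03 for all genes, and -0.10 without library 6. Without that library 3 were lower and 1 higher at an unadjusted p under 0.05, beside 3.59% and 8.17% of all genes. Without library 6 and the sex term, the median was -0.17, with 4 lower and 0 higher, beside 1.38% and 2.5%. It was -0.35 within the deeper libraries, with library 10 the only wild type. It was -0.18 within the shallower ones, with library 6 the only knockout. The labels name no injury or disease for these mice.

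Lpl, which frees fatty acids from circulating lipoproteins, measured 7.76, 9.94, 7.96 and 9.65 RPKM in wild type and 4.94, 5.32 and 7.00 RPKM in knockout libraries 6, 9 and 12. All knockout values were below wild type (log2 -0.61, SE 0.16 and limma adjusted p = 0.834; -0.51 without library 6). Cadm1, an adhesion molecule, measured 25.9 RPKM in wild-type libraries 1, 4 and 7 and 27.7 in library 10, against 20.3, 21.3 and 20.8 in knockout. The libraries of each group lay close together, and the knockout mean was 78.9% of the wild-type mean (log2 -0.33, SE 0.09 and limma adjusted p = 0.851; -0.29 without library 6). Ank, a pyrophosphate transporter, measured 17.3, 13.7, 17.2 and 17.4 RPKM in wild type and 12.0, 13.3 and 11.8 in knockout, also without overlap (log2 -0.37; -0.28 without library 6).

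Csf1, the growth factor of microglia and macrophages, measured 94.6, 49.9, 76.2 and 103.1 RPKM in wild type and 49.1, 51.4 and 57.1 in knockout libraries 6, 9 and 12. Wild-type library 4 lay among the knockouts, and the log2 fold change went from -0.51 to -0.19 without library 6, but was -0.52 when the sex term was dropped as well. Axl, a receptor for the tags on dying cells, behaved likewise with 13.3, 8.41, 11.6 and 16.0 RPKM in wild type and 7.04, 8.02 and 10.2 in knockout (log2 -0.47; -0.12 without library 6, and -0.39 with the sex term dropped too). Both genes were highest in the female wild-type libraries. Leaving out the female knockout with sex in the model left only the male contrast, as for every gene.

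The 9 genes of the stage that does not require Trem2 had a median of -0.02, with 4 positive (0.10 without library 6, with 6 positive). Timp2, an inhibitor of metalloproteinases, measured 149.5, 174.1, 164.5 and 153.2 RPKM in wild type and 101.6, 139.6 and 134.1 in knockout libraries 6, 9 and 12, without overlap (log2 -0.41, SE 0.09 and limma adjusted p = 0.792; -0.31 without library 6). Lyz2, lysozyme, differed the other way and overlapped, at 160.1 to 364.7 RPKM in wild type and 316.2 to 400.2 in knockout. Its log2 fold change was 0.49, 0.71 without library 6, and 0.33 with the sex term dropped too. The homeostatic genes, which mark resting microglia, were 26, with 16 positive and a median of 0.05 (0.09 without library 6), and 1 was higher and 0 lower at an unadjusted p under 0.05, beside 3.29% and 1.84% of all genes (3 and 1 without library 6, beside 8.17% and 3.59%). P2ry12, the ADP receptor of microglial processes, was at 1966 ± 272.2 RPKM in wild type (SD, n = 4) and 2073 ± 255.4 in knockout (SD, n = 3). Its log2 fold change of 0.06 (SE 0.16) turned to -0.16 without library 6. Csf1r, the receptor that microglia need to survive, was at 1615 ± 95.9 and 1688 ± 300.4 RPKM (log2 0.02, SE 0.14, 0.22 without library 6, and -0.01 after median-ratio scaling).

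**Figure D3:**
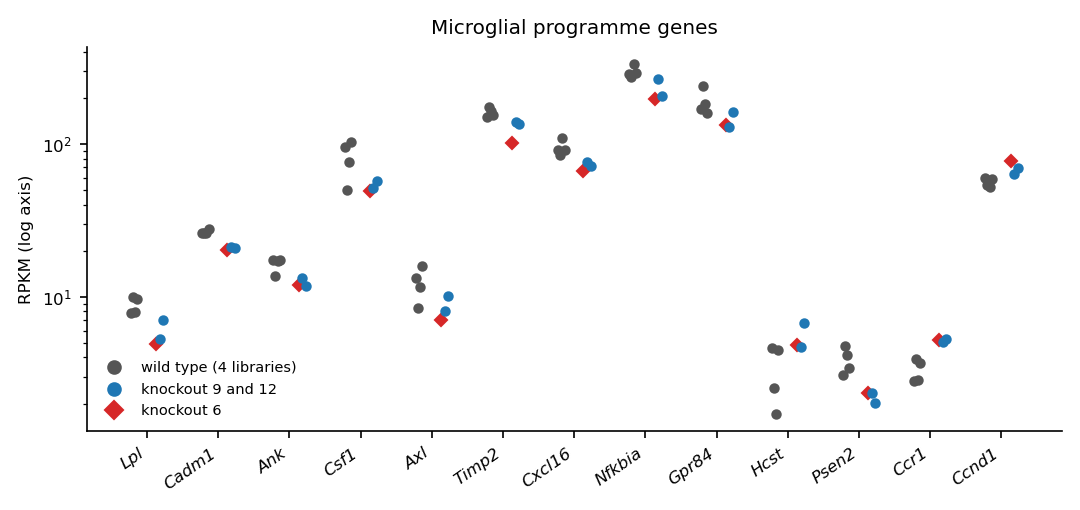
RPKM on a log axis of 13 genes from the lists of microglial states and signalling, 1 point for each library (grey wild type, blue knockout 9 and 12, red diamond knockout 6). Lpl, Cadm1, Ank, Timp2, Cxcl16 and Psen2 lie below wild type in all 3 knockout libraries, Ccr1 and Ccnd1 lie above it, and none of these differences passed the adjusted test.

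Of 33 inflammatory and NF-kB genes, 21 had negative values, and the median was -0.11. At an unadjusted p under 0.05, 0 were higher and 3 lower, beside 3.29% and 1.84% of all genes, and 3 and 4 without library 6, beside 8.17% and 3.59%. Without library 6 the median was 0.05, and -0.05 with the sex term dropped as well, so the list's sign was not stable. Cxcl16, a membrane-bound chemokine, measured 91.2, 84.9, 109.0 and 90.9 RPKM in wild type and 66.6, 75.9 and 71.2 in knockout libraries 6, 9 and 12, without overlap (log2 -0.41, SE 0.11 and limma adjusted p = 0.832; -0.39 without library 6). Nfkbia, the inhibitor that NF-kB itself induces, measured 285.8, 273.4, 330.2 and 288.5 RPKM in wild type and 195.1, 266.7 and 206.6 in knockout. Library 9 lay just below the lowest wild type, and the log2 fold change was -0.44 (-0.36 without library 6). Gpr84, which senses fatty acids of medium chain length, measured 169.8, 239.5, 181.3 and 158.2 RPKM in wild type and 132.4, 129.5 and 160.7 in knockout, with library 12 above the lowest wild type (log2 -0.44; -0.53 without library 6). Genes of the lysosome were 32, with 23 negative and a median of -0.07, and 0.00 without library 6. Gla, a lysosomal galactosidase, was the 1 member lower at an unadjusted p under 0.05, beside 1.84% of all genes (log2 -0.32, limma adjusted p = 0.914; -0.25 without library 6), and without library 6 the list had 4 higher and 1 lower, beside 8.17% and 3.59%. In 20 genes of complement and phagocytosis the median was -0.02 (0.08 without library 6).

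Lipid uptake, storage and efflux genes were 26, with a median of 0.07, and 1 higher (Dgat1) and 1 lower at an unadjusted p under 0.05, beside 3.29% and 1.84% of all genes. Without library 6 the median was 0.16 with 6 higher and 2 lower, beside 8.17% and 3.59%. With the sex term dropped too it was 0.08 with 2 and 0, beside 2.5% and 1.38%. The lower one in the 7 libraries, Lpcat1, an enzyme of phospholipid remodelling, measured 37.8 to 41.5 RPKM in wild type and 30.1, 38.3 and 32.7 in knockout libraries 6, 9 and 12 (log2 -0.29; -0.23 without library 6). Cholesterol synthesis genes were 19, with 14 positive, beside 57.5% of all genes, and a median of 0.13 (0.25 without library 6). At an unadjusted p under 0.05, 0 were higher and 0 lower, beside 3.29% and 1.84% of all genes. Without library 6 the counts were 1 and 0, beside 8.17% and 3.59%. Of 20 genes of mTOR and energy sensing, Rragd, a GTPase that places mTOR on the lysosome, was at 4.04 to 4.90 RPKM in wild type and 2.53 to 3.31 in knockout, without overlap (log2 -0.52, limma adjusted p = 0.914; -0.39 without library 6). The list's median was -0.05 (0.03 without library 6). Genes of oxidative phosphorylation (26, median 0.04), glycolysis (19, median 0.08) and ribosomal proteins (28, median 0.05) had 1, 1 and 0 members higher and 0, 1 and 0 lower at an unadjusted p under 0.05, beside 3.29% and 1.84% of all genes. Without library 6 they had 2, 2 and 7 higher and 1, 0 and 1 lower, beside 8.17% and 3.59%. Their medians were then 0.04, 0.10 and 0.19. With the sex term dropped too they had 1, 0 and 1 higher and 0 lower, beside 2.5% and 1.38%. In 22 genes of migration and injury sensing the median was 0.05 (0.08 without library 6), and Ccr1, a chemokine receptor, measured 2.81 to 3.93 RPKM in wild type and 5.21, 5.08 and 5.32 in knockout (log2 0.59, SE 0.17 and limma adjusted p = 0.851; 0.56 without library 6).

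For interferon-stimulated genes and the cell cycle the sign of the list depended on which libraries were compared. Of 33 interferon-stimulated genes, 27 had positive values, beside 57.5% of all genes, and 4 were higher at an unadjusted p under 0.05, beside 3.29%, with a median of 0.10. Without library 6, 16 were positive, 2 were higher and 2 lower at an unadjusted p under 0.05, beside 8.17% and 3.59%, and the median was -0.01, and -0.13 with the sex term dropped. The summed level was 316.3, 300.3, 295.4 and 417.1 RPKM in wild-type libraries 1, 4, 7 and 10 and 472.6, 307.1 and 323.6 in knockout libraries 6, 9 and 12. Library 6 was thus the highest, wild-type library 10 the next, and the other knockouts lay within wild type. The median was -0.52 within the deeper and 0.65 within the shallower libraries. Ifitm3, a membrane protein that blocks virus entry, measured 42.5 to 68.0 RPKM in wild type and 98.4, 60.1 and 79.2 in knockout (log2 0.55, limma adjusted p = 0.851; 0.45 without library 6).

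Of 29 cell cycle genes, 26 had positive values, 4 were higher at an unadjusted p under 0.05 (beside 3.29% of all genes) and the median was 0.30. Without library 6, 22 were positive, 2 were higher, beside 8.17% of all genes, and the median was 0.22, and it was -0.13 within the deeper and 0.55 within the shallower libraries. Ccnd1, the cyclin of early G1, measured 59.5, 53.7, 52.5 and 58.5 RPKM in wild type and 76.6, 63.2 and 69.7 in knockout libraries 6, 9 and 12, without overlap (log2 0.34, SE 0.09 and limma adjusted p = 0.832; 0.32 without library 6). Mki67, a proliferation marker, was at 15.1 RPKM in library 6, 6.09 and 6.05 in libraries 9 and 12, and 4.43 to 6.70 in wild type. Its log2 fold change was 0.71, and 0.28 without library 6.

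The CD11b beads can carry other myeloid cells along. Summed neutrophil markers were higher in every knockout library than in any wild type, while the sums of monocyte and border macrophage markers overlapped. Of 13 tested neutrophil markers, 13 had positive values, 10 were higher at an unadjusted p under 0.05, beside 3.29% of all genes, and 10 had all knockout libraries above wild type, beside 2.96%. None passed the adjusted test, and the median was 1.98. Without library 6 the median was 0.90. At an unadjusted p under 0.05, 9 of 13 were then higher and 1 lower, beside 8.17% and 3.59% of all genes. S100a9, an abundant calcium-binding protein of neutrophils, measured 34.6, 75.6, 76.9 and 81.8 RPKM in wild type and 1040, 133.9 and 134.5 in knockout libraries 6, 9 and 12. Library 6 was far above the other 2 knockout libraries, which were still above every wild type (log2 2.20, SE 0.62 and limma adjusted p = 0.851; 0.81 without library 6). Csf3r, the receptor for granulocyte colony-stimulating factor and the most abundant of the list in wild type, did not follow, at 119.9 to 140.7 RPKM in wild type and 108.3, 136.5 and 164.8 in knockout (log2 0.01, 0.24 without library 6, and -0.03 after median-ratio scaling).

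Monocyte markers were 14, with 13 positive, 8 higher at an unadjusted p under 0.05, beside 3.29% of all genes, and a median of 0.60. Without library 6, 5 were higher, beside 8.17%, and the median was 0.49. Their summed level was 212.8, 140.3, 198.6 and 238.1 RPKM in wild type and 354.9, 208.2 and 249.9 in knockout libraries 6, 9 and 12. Library 9 thus lay within the wild-type range and library 12 just above it. Ifitm6, a myeloid membrane protein, measured 3.94, 6.94, 9.51 and 9.14 RPKM in wild type and 83.3, 15.3 and 16.2 in knockout. Ms4a4c measured 0.963 to 1.42 RPKM in wild type and 3.58, 1.45 and 1.79 in knockout. In both genes every knockout library was above wild type, with log2 fold changes of 2.02 and 0.76, and 0.91 and 0.48 without library 6.

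Border macrophage markers behaved differently: their summed level was 146.5, 92.1, 117.4 and 154.0 RPKM in wild type and 107.7, 153.6 and 179.7 in knockout libraries 6, 9 and 12. Library 6 lay low here. The median of the 12 genes was 0.21 with it and 0.57 without it, 0.33 with the sex term dropped as well. Within the deeper libraries the median was -0.004, and within the shallower ones -0.069. At an unadjusted p under 0.05, 0 were higher and 0 lower, beside 3.29% and 1.84% of all genes. Without library 6, 7 were higher, beside 8.17%, and 1 with the sex term dropped too, beside 2.5%. Mrc1, the mannose receptor, measured 56.5, 36.1, 45.9 and 60.7 RPKM in wild type and 44.3, 58.9 and 70.1 in knockout. Its log2 fold change was 0.23, 0.65 without library 6, and 0.39 with the sex term dropped too. Ttr, the choroid plexus transporter of thyroid hormone, measured 1020, 680.3, 598.9 and 952.4 RPKM in wild type and 946.8, 1029 and 960.8 in knockout, so that wild-type males were low and all other libraries alike (log2 0.36; 0.64 without library 6). Markers of endothelium (12 genes, median 0.14), mural cells (8, 0.02), astrocytes (9, 0.02), oligodendrocytes (4, 0.01) and neurons (4, -0.12) overlapped in their summed levels. Of 11 T and NK cell markers 4, and of 5 B cell markers 4, were under 0.5 RPKM in all 7 libraries. Of 6 red cell markers the 4 globin genes were listed at 0. The part that these other cells had in the differences of the microglial lists was not tested.

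**Figure D4:**
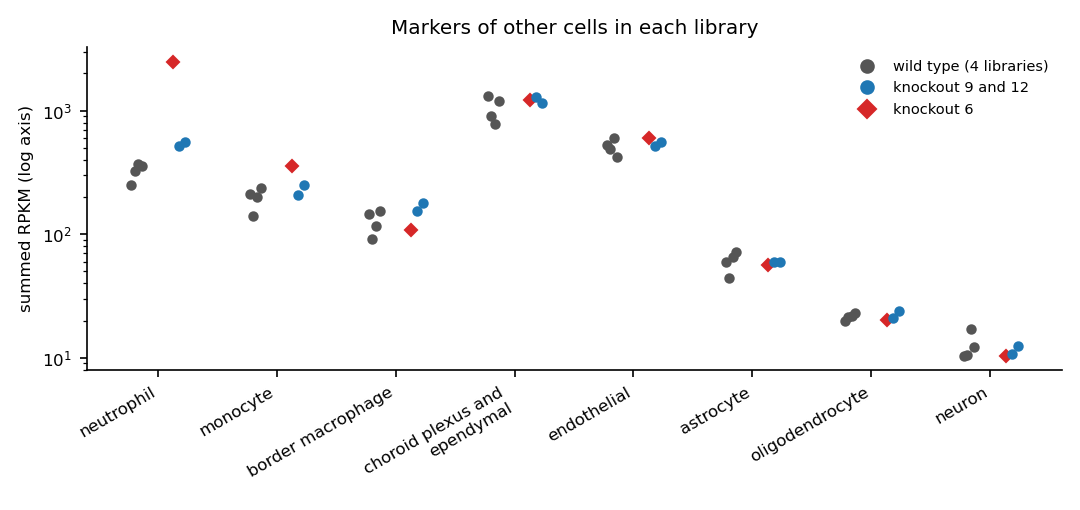
Summed RPKM on a log axis of marker lists of other cells, 1 point for each library (grey wild type, blue knockout 9 and 12, red diamond knockout 6). Neutrophil markers sum to 248.3 to 369.8 in wild type, 519.7 and 558.3 in knockout 9 and 12 and 2491 in knockout 6, and the other lists overlap between the groups.

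**Figure D5:**
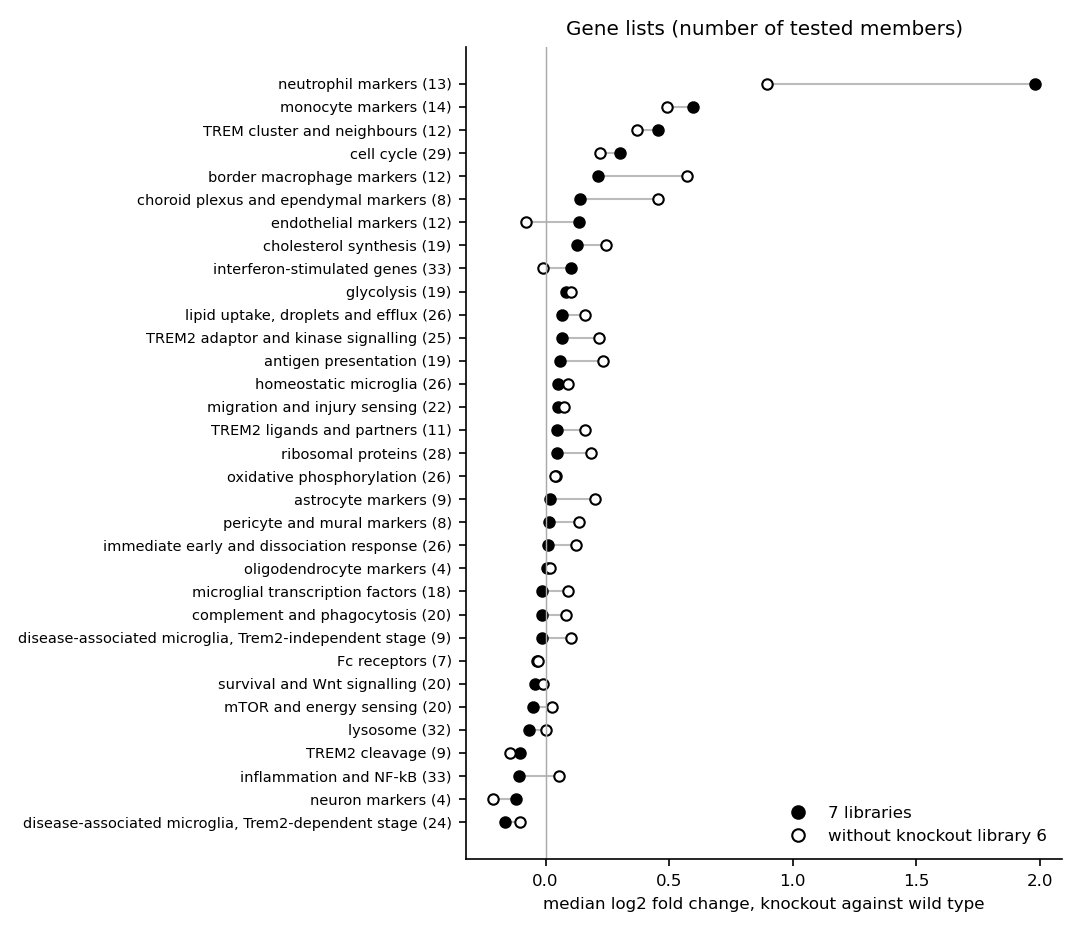
Median log2 fold change of knockout against wild type for each list with at least 4 tested genes, with all 7 libraries (filled) and without knockout library 6 (open). Neutrophil markers go from 1.98 to 0.90 and border macrophage markers from 0.21 to 0.57, and the inflammation list crosses 0 from -0.11 to 0.05.

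Leaving out library 6 left 2 male knockouts, so with sex in the model the contrast equalled the male libraries' own: deep libraries 9 and 12 against shallow libraries 4 and 7. That fit called 2 genes higher (0.015%) and 4 lower (0.0301%): Trem2, Treml2 and the microRNA genes Mir24-2, Mir467f, Mir5129 and Mir5104. Mir24-2 measured 5.01 and 4.56 RPKM in wild-type males 4 and 7, 25.3 and 23.4 in wild-type females 1 and 10, and 20.2 to 22.8 in all 3 knockouts. The 2 wild-type males thus stood apart from every other library, as they did for Mir467f, at 29.9 and 38.7 RPKM against 9.14 to 13.7 elsewhere. Mir5104 was low in libraries 9 and 12, at 0.558 and 0.529 RPKM, and at 9.36 in library 6 and 3.46 to 6.61 in wild type. These calls rested on few reads. Mir5104 held 2 reads in each of libraries 9 and 12, 17 in library 6 and 6 to 22 in wild type. Mir5129 held 0 to 9 reads in any library, Mir467f 13 to 35, and Mir24-2 held 11 and 9 in wild-type males 4 and 7. With the sex term dropped as well, 0 genes were higher and 3 lower (0.0226%; Trem2, Treml2 and Mir5104), with 332 higher (2.5%) and 183 lower (1.38%) at an unadjusted p under 0.05.

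Whether the knockout effect differed between the sexes was tested by an interaction term, which rests on library 6 as the only female knockout. It called 11 genes (0.0827% of 13299), with the smallest limma adjusted p = 0.0308. Mmp8, a neutrophil collagenase, led them with 40.4 RPKM in library 6, 6.61 and 3.80 in libraries 9 and 12, and 2.08 to 7.31 in wild type. Camp and S100a8, also of neutrophils, and S100a11 were likewise highest in library 6. Id2, an inhibitor of helix-loop-helix factors, was lowest there, at 79.8 RPKM, with 146.9 and 161.9 in the male knockouts and 115.8 to 187.4 in wild type. The other 6 were short-RNA genes, among them Mir24-2 and Mir467f, in which wild-type males 4 and 7 stood apart rather than library 6. Neutrophil marker level moved with library 6 in these results, and sex and library cannot be told apart.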

How the data were processed

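RNA from CD11b-bead-isolated microglia was sequenced by the authors, per the labels. The values deposited by the authors are linear RPKM. The submitters' processing notes name STAR, HTSeq, edgeR, limma and the mm10 build, and versions, annotation and strand setting are not stated in these sources. Whole reads were recovered from the RPKM steps for all 20008 genes with a value above 0 (within 0.0005 reads or a relative 1e-07). The 27 gene names turned into dates were left out, and 22776 of 24033 names matched GENCODE M21.

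RPKM were transformed as log2(RPKM + 0.5) and tested with limma 3.58.1 (limma-trend) in R 4.3.3 over the 7 libraries with genotype and sex as terms, two-sided. Benjamini-Hochberg adjustment ran over 13299 genes, and 0.05 was the threshold. The filter counted libraries of both groups, so genes low in wild type, such as Treml4, Unc5cl and Plac8, passed it only through knockout libraries. Fold changes on this scale understate those of low genes. The exact permutation test used SciPy 1.17.1. The test was run on simulated data first. These had the same variability setting for all genes and no sex or library effects, so that run did not test such effects. Deeper libraries are those over 30 M reads. Comparisons within them have library 10 as the only wild type, and those within the shallower libraries have library 6 as the only knockout.

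Named genes were Trem2, the 12 higher and 12 lower genes with the smallest p and a mean of at least 2 RPKM (clone, predicted, microRNA and snoRNA names left out), and in each of 36 lists up to 2 members with the highest level and 3 with the smallest p; the genes of the TREM cluster and those called under another setting were added after their values were seen. The comparison, members and lists were chosen with earlier results of these data known. The results of 2 list members are not reported here. Alternatives were other pseudocounts, filters, scaling, quality weights, limma-voom on whole reads, male libraries, all 10 libraries, no sex term and each library left out; a depth term and the fit without library 6 and sex were chosen after seeing the data.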

Additional observations from a re-analysis of the deposited data

Results flagged for a closer look

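In 84 wild-type groups of 4 libraries (gene levels and summed marker lists) the gap between 1 library and the rest was checked against Dixon's criterion, and 7 groups had such a library. Chance alone gives about 1 in 20. Wild-type library 10 stood apart in 5 of them: it was above the other wild types for Cadm1 (27.71 RPKM), Ube2c (3.406 RPKM), C3 (4.22 RPKM) and Plac8 (1.37 RPKM) and below them for Lpcat1 (37.78 RPKM). Wild-type library 4 was low for Ank, at 13.66 RPKM, and wild-type library 1 was low for S100a9, at 34.64 RPKM. Library 10 is the deepest wild-type library; the part of depth in these values was not tested.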

How the results depend on the processing

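Trem2 kept its direction and its call under all 20 alternatives run, at log2 fold changes of -3.33 to -2.79. Counts of called genes were 0 higher and 1 lower with all 10 libraries, without the sex term, at pseudocounts of 0.1 and 1, without a filter, at a filter of 1 RPKM and with median-ratio scaling. They were 1 higher and 2 lower in male libraries only, 2 and 2 by limma-voom on whole reads, 1 and 1 with a depth term and 20 and 3 by limma-voom with a depth term. Quality weights gave 400 higher and 177 lower, but the weighting did not converge and gave library 9 a weight of 5.13 and library 6 one of 0.22; the cause of the larger counts was not tested further. Leaving out 1 library at a time gave 0 to 2 higher and 1 to 4 lower, the most without library 6. Genes whose libraries do not overlap numbered 601 to 1001 higher and 342 to 671 lower when 1 library was left out, which fewer libraries make easier, and 310 lower without a filter, where more genes are counted. Of 71 other genes carried through the alternatives, 6 near 0 changed sign in at least 1. Apoe (log2 fold change) was at -0.25 with a depth term, -0.20 by voom with it and -0.29 to 0.71 with 1 library left out. P2ry12 was at -0.16 in males only and -0.16 to 0.18 with 1 library left out. Csf1r was at -0.011 with median-ratio scaling, -0.060 with a depth term, -0.052 by voom with it and -0.078 to 0.22 with 1 library left out. Csf3r was at -0.026, -0.084, -0.071 and -0.12 to 0.24 under the same settings. Oard1 was at -0.055 without library 6 and the sex term, and at -0.055 to 0.22 with 1 library left out. Foxp4 was at 0.0029 with quality weights, 0.45 in males only, 0.056 by voom and -0.25 to 0.45 with 1 library left out. Medians of 13 of 33 lists moved by more than their spread between libraries without library 6. No paired analysis was possible because the groups share no replicate numbers. With 3 knockouts, differences of the size of Pdgfa or Cadm1 did not pass, which does not show that they are absent.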
